A study of Homo sapiens with 8 samples.

Results

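The interferon-induced PARP enzymes PARP9, PARP10, PARP12 and PARP14 and the ubiquitin ligase DTX3L were followed across 8 RNA sequencing libraries, 4 labelled siPRMT7 and 4 labelled siCtrl. The cells were PC3, an established line from a human prostate cancer. The 5 genes were picked by symbol from a deposited table of 58735 genes. PARP10 was picked because it stood among the strongest increases in this same comparison, and the other members were listed with that result known, so the differences between the groups are given for all 5 as a description, with no p-value for any of them; how many a table-wide test called is stated once, as a count. Synthetic RNA was delivered with Lipofectamine 3000, cells were harvested 48 h later, and, by the same labels, all 8 libraries were poly(A) selected. The labels give the genotype of the siPRMT7 libraries as PRMT7 knockdown and of the siCtrl libraries as WT. Sample titles begin with si where library names begin with sh, and the titles were followed. Nothing in the labels states that the 4 replicates of a group came from separate cultures, so any p-value measures only the spread between these libraries, which may be technical.

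PARP enzymes move ADP-ribose from NAD+ onto proteins or nucleic acids. PARP10, PARP12 and PARP14 attach single ADP-ribose units, in contrast to PARP1, which builds chains. PARP14 and PARP9 also carry macrodomains, folds that bind ADP-ribose. PARP9 has little transferase activity of its own and works in a complex with DTX3L, an E3 ubiquitin ligase of the deltex family. Interferons raise the transcription of these genes through transcription factors that bind a DNA element called the interferon-stimulated response element, and several of the encoded proteins restrict viruses.

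The promoters of these genes are shown because the response element is how interferon is known to act on such genes. As the genes were picked as interferon-induced, its presence is a description and not an independent feature. RefSeq promoter windows (GRCh38.p14, from 250 bases before to 50 bases after an annotated start, read 5′ to 3′ on the strand of the gene) were matched by symbol for PARP9, PARP12, PARP14 and DTX3L, and no window was matched for PARP10. Capitals mark the core of the response element, searched as GAAA, 2 bases of any kind and GAAA again, or on the other strand TTTC, 2 bases of any kind and TTTC. The windows are chr3:122564251-122564550 (minus strand) for PARP9, chr3:122564088-122564387 (plus strand) for DTX3L, chr3:122680589-122680888 (plus strand) for PARP14 and chr7:140062902-140063201 (minus strand) for PARP12.
PARP9: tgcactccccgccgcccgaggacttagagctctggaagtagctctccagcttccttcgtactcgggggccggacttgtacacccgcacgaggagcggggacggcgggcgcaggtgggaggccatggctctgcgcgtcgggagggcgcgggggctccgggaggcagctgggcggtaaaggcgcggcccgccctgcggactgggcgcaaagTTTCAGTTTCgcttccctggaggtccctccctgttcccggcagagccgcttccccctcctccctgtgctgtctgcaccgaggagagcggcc
DTX3L: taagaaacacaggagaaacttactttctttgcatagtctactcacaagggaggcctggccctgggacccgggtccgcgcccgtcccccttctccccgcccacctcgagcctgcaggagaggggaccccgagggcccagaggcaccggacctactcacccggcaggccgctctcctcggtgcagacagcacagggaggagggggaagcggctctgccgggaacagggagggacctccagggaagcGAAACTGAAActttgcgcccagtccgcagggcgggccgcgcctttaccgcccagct
PARP14: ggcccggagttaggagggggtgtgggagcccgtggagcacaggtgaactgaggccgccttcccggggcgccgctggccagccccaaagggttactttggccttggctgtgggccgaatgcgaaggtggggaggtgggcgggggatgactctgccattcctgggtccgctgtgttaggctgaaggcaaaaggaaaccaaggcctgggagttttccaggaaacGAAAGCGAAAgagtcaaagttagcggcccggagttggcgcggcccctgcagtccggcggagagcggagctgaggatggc
PARP12: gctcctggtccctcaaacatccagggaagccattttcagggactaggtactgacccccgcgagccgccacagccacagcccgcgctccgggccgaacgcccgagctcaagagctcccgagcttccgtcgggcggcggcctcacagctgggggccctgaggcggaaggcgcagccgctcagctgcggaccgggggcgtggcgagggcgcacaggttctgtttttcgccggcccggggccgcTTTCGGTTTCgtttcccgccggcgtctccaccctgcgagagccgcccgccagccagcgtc

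Each of these 4 genes had 1 match. In the DTX3L window it lay at bases 245 to 254, across the annotated start. It ended at base 250 in the PARP12 window, at base 231 in the PARP14 window and at base 219 in the PARP9 window. A second PARP9 window, from a start farther upstream of the gene, held 0 matches. PARP9 and DTX3L lie head to head on chromosome 3, and their windows share 137 bases, read on opposite strands. Their match is one and the same stretch, bases 122564332 to 122564341 of chromosome 3. The core was found in 3.57% of all 35116 promoter windows and, counted by gene, in 1195 of 27305 genes (4.38%). By gene, it was found in 24 of the 33 other interferon response genes that had a window, and in 0 of 11 other PARP genes, 0 of 2 other deltex genes and 0 of 7 interferon signalling genes. A match is a string of letters and does not show that a factor binds there.

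Each library held 14526030 to 15724862 fragments. Levels are given as FPKM, fragments scaled to gene length and to library size, which allows genes of different length to be compared. The library siPRMT7 replicate 2 stood apart. The leading principal component took up 31.4% of the variance, and on it this library lay at 0.245 log2 units per gene, and the other 7 lay between -0.103 and 0.0635. The log2 fold changes of the 5 members and the likeness of PARP14 and PARP9 to DTX3L are also given without it. Most other results are given only with it. The targeted gene PRMT7, an arginine methyltransferase, had 4.62, 4.31, 5.01 and 4.82 FPKM in the siPRMT7 libraries, against 5.245, 4.86, 5.10 and 5.25 FPKM in the siCtrl libraries. In 3 of 4 libraries labelled siPRMT7 it was below every siCtrl library, and the difference did not pass a two-sided exact permutation test (p = 0.0571, where the smallest possible is 0.0286). Directions below are therefore those of the libraries labelled siPRMT7 against those labelled siCtrl. The epithelial keratin KRT19 averaged 331 FPKM in siPRMT7 and 297 FPKM in siCtrl libraries. KRT8 averaged 63.1 FPKM in siPRMT7 and 58.5 FPKM in siCtrl libraries. The prostate marker KLK3 had 0 fragments in any library, as is known for PC3 cells. The leukocyte marker PTPRC averaged 0.131 FPKM in siPRMT7 and 0.108 FPKM in siCtrl libraries.

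PARP10 was the member with the largest difference of the 5, and PARP14 and DTX3L had means that almost coincided between the groups. PARP10 (ENSG00000178685, GRCh38, chromosome 8, 143977153 to 144012772, minus strand) encodes a mono-ADP-ribosyltransferase with RNA recognition and ubiquitin-interacting motifs. It had 44.5, 49.6, 44.3 and 45.7 FPKM in the siPRMT7 libraries, against 37.1, 35.3, 35.8 and 31.8 FPKM in the siCtrl libraries. The groups did not overlap, every siPRMT7 value being the higher, and siPRMT7 replicate 2 was the highest of the 8. The means were 46.03 ± 2.44 and 34.98 ± 2.26 FPKM (SD, n = 4 each), which makes siPRMT7 31.6% higher. Its log2 fold change was 0.39 (SE 0.0578), and on the log2(FPKM + 1) scale used for every fold change here it ranked 216th of 13436 genes tested from the highest increase down. RNA came from whole cultures, so more cells that express a gene and more RNA per cell cannot be told apart.

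PARP12 (ENSG00000059378, chromosome 7, 140023744 to 140063721, minus strand) is a mono-ADP-ribosyltransferase with zinc fingers that bind RNA. It had 16.2, 15.8, 14.4 and 15.2 FPKM in the siPRMT7 libraries, against 14.4, 13.6, 13.5 and 13.95 FPKM in the siCtrl libraries. Replicates 1, 2 and 4 of siPRMT7 exceeded all siCtrl values, and replicate 3 was just under the highest of them. The log2 fold change was 0.14 (SE 0.0474).

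PARP14 (ENSG00000173193, chromosome 3, 122680618 to 122730840, plus strand), a long protein with macrodomains ahead of its transferase domain, had 44.1, 33.1, 37.2 and 38.3 FPKM in the siPRMT7 libraries. In the siCtrl libraries it had 38.1, 38.9, 34.8 and 37.4 FPKM. The siPRMT7 libraries held both the highest value of the 8, in replicate 1, and the lowest, in replicate 2, so the groups overlapped throughout. The log2 fold change was 0.03 (SE 0.0798).

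PARP9 (ENSG00000138496, chromosome 3, 122527924 to 122564577, minus strand) had 37.02, 33.3, 34.3 and 35.5 FPKM in the siPRMT7 libraries, against 32.1, 31.9, 33.3 and 34.1 FPKM in the siCtrl libraries. In 3 of 4 siPRMT7 libraries it was above every siCtrl library, and replicate 2 was the exception. The log2 fold change was 0.09 (SE 0.0449). Its partner DTX3L (ENSG00000163840, chromosome 3, 122564238 to 122575203, plus strand) had 69.7, 53.8, 60.6 and 61.01 FPKM in the siPRMT7 libraries, against 59.8, 60.5, 57.8 and 62.1 FPKM in the siCtrl libraries. As with PARP14, replicate 1 of siPRMT7 was the highest and replicate 2 the lowest of all 8 libraries. The log2 fold change was 0.02 (SE 0.0714).

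**Figure D1:**
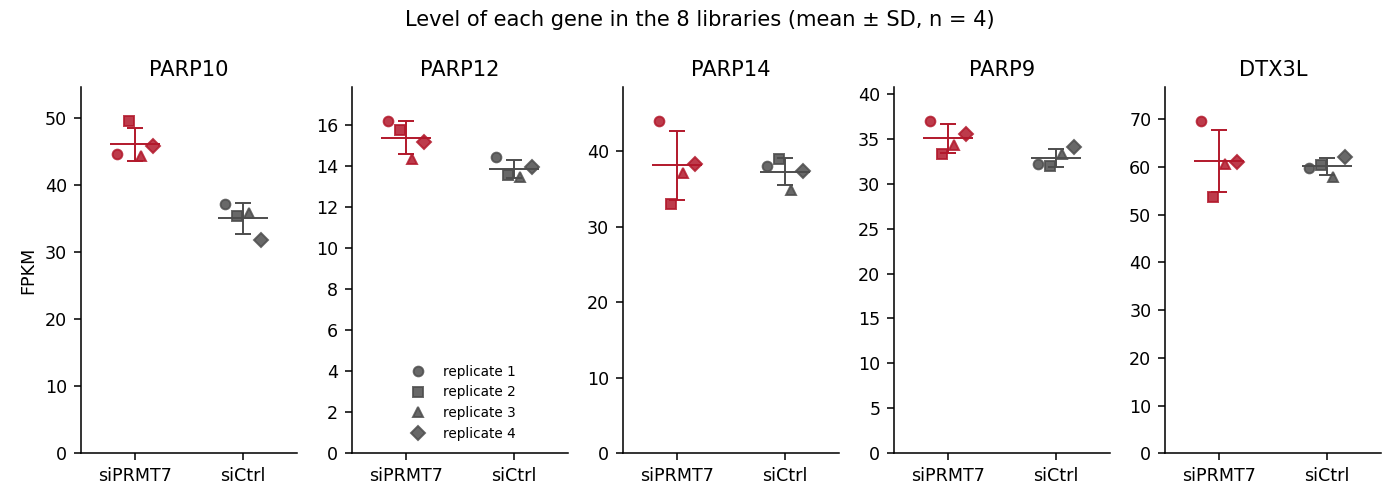
FPKM of the 5 genes in each library, with siPRMT7 (red) left of siCtrl (grey); points are libraries, shaped by replicate number, and bars are the mean ± SD of 4. PARP10 is the gene whose groups do not overlap, and in PARP14 and DTX3L the siPRMT7 libraries span from 33.1 to 44.1 and from 53.8 to 69.7 FPKM.

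All 5 members were above the filter of 1 FPKM in all 8 libraries, so none entered the test through one group. Their median log2 fold change was 0.09, with 5 of 5 above 0, beside a median of -0.00 and 49.5% above 0 over all 13436 genes tested. With limma, 0 of the 5 passed an adjusted p of 0.05, where 0.0149% of all genes were called higher. Of 17 alternatives, library weights and voom on rebuilt fragments each called 1 of the 5, PARP10. Every other alternative, leaving out any 1 library among them, called 0 of the 5. Library weights called 0.342% of all genes higher and 0.0893% lower, and voom 0.0893% and 0.00744%. The groups did not overlap for 1 of 5 members, against 4.14% of all genes with every siPRMT7 library above every siCtrl library and 4.43% with every one below. Because this comparison also chose the members, nothing is read from these counts.

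Among the siCtrl libraries DTX3L was the most abundant of the 5 per length, with 60.07 ± 1.77 FPKM, and PARP12 the least, with 13.9 ± 0.431 FPKM (SD, n = 4 each). PARP14 (37.3 ± 1.77), PARP10 (34.98 ± 2.26) and PARP9 (32.9 ± 1.02 FPKM) lay between. PARP10 overlapped both PARP14 and PARP9 in its range over libraries, whereas the lowest PARP14 library was above the highest PARP9 library. In the siPRMT7 libraries the order changed in 1 place: PARP10 stood second, from 44.3 FPKM upward, above all 4 values of PARP14. Measured by its siCtrl level, DTX3L was higher than 95.4% of the genes tested and PARP12 higher than 73.3%. Between 1272 and 7191 fragments per library lay behind the members' values, a counting error of at most 2.80%. The spread between siPRMT7 libraries was 10.7% of the mean for DTX3L and 11.9% for PARP14, and 4.60 to 5.29% for the others. Between siCtrl libraries it was 2.95 to 6.46%.

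PARP14 and DTX3L kept a near-constant proportion to each other in all 8 libraries, while PARP10, picked for its rise between these groups, did not follow them. The ratio of PARP14 to DTX3L in FPKM was 0.632, 0.615, 0.613 and 0.628 in the siPRMT7 libraries, against 0.636, 0.644, 0.602 and 0.602 in the siCtrl libraries. These ranges overlap. The ratio of PARP10 to DTX3L was 0.639, 0.922, 0.731 and 0.749 in the siPRMT7 libraries, against 0.620, 0.583, 0.619 and 0.512 in the siCtrl libraries, with no overlap and its peak in siPRMT7 replicate 2. For PARP9, which shares a promoter region with DTX3L, the ratio ran from 0.531 to 0.619 in siPRMT7 and from 0.528 to 0.576 in siCtrl libraries. Ratios to DTX3L share its values, so they are not independent of each other. The choice of PARP10 by its rise also enters its ratio, so nothing is read from the lack of overlap there.

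Likeness was measured as the root mean square distance between centred log2(FPKM + 1) values over the 8 libraries. Of 13435 other genes tested, the nearest to DTX3L was PARP14 (distance 0.0330), and DTX3L was the 2nd nearest to PARP14 after ZER1. With each library's trend on length and GC content removed, as described below, PARP14 ranked 41st from DTX3L and DTX3L 30th from PARP14. PARP9, which shares a promoter region with DTX3L, ranked 486th from it (distance 0.0725), but 165th without siPRMT7 replicate 2, 1800th without siPRMT7 replicate 1 and 2642nd with the trends removed. PARP10 ranked 11420th from DTX3L and 11243rd from PARP14. The difference between the groups by which PARP10 was picked enters these distances, so nothing is read from its ranks. Without siPRMT7 replicate 2 PARP14 ranked 11th from DTX3L and DTX3L 12th from PARP14. Without siPRMT7 replicate 1 these ranks were 96th and 26th, and without siPRMT7 replicate 3 or 4 or any 1 siCtrl library PARP14 ranked 1st to 8th from DTX3L. The 3 genes nearest to PARP10 were EFNA1, an ephrin ligand, C19orf66, an interferon-induced inhibitor of viral translation, and STX10, a syntaxin, at distances of 0.0602, 0.0610 and 0.0654. Nearest to PARP9 were WASHC2A, WASL and CDK9, and nearest to PARP12 were DBR1, TENT5A and HPS1. To the mean profile of the 5 members the nearest were BCL3, a co-regulator of NF-kB (0.0220), ZC3HAV1 (0.0283), PSMC3IP (0.0306), PRKD2 (0.0330), SP110 (0.0332) and PML (0.0354). ZC3HAV1 is itself a PARP family member, and SP110 and PML are nuclear body proteins. All genes share the same 8 libraries, so any library that stands apart enters each distance.

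Gene length and base composition differed between the members and moved with the libraries. PARP14 (10495 bases of exons) and PARP9 (8938 bases) fall in the longest of 5 classes of about equal size, and the other 3 in the next. In the longest class the median log2 difference from the siCtrl mean was 0.01, -0.15, -0.07 and -0.03 in siPRMT7 replicates 1 to 4, against -0.02 to 0.02 in the siCtrl libraries. In the shortest class it was 0.17 in siPRMT7 replicate 2. By GC content of the longest transcript, PARP10 (66.9%) falls in the highest class and PARP9, PARP14 and DTX3L (42.4 to 44.2%) in the second lowest. In the highest GC class the median was 0.02 to 0.08 in siPRMT7 libraries, against -0.02 to 0.02 in siCtrl libraries.

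**Figure D2:**
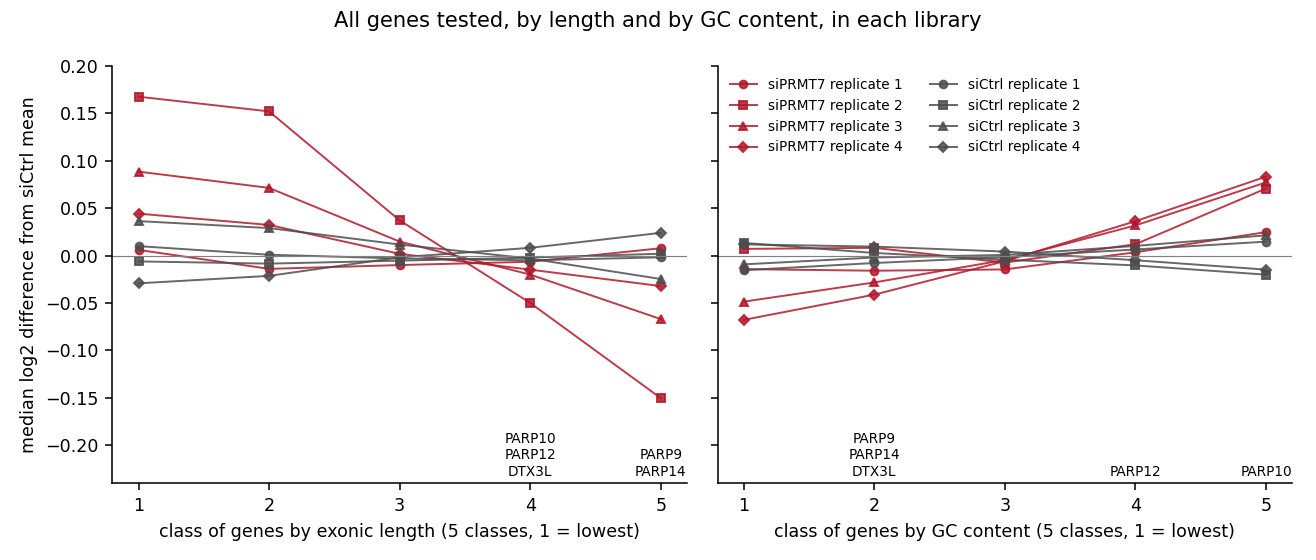
Median log2 difference from the siCtrl mean over all genes tested, in 5 classes by exonic length (left) and by GC content (right), 1 line per library, siPRMT7 in red and siCtrl in grey; the members are named at the foot of the class they fall in. In siPRMT7 replicate 2 the line falls from 0.17 in the shortest to -0.15 in the longest class.

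With each library's trend on length and GC content removed, a setting chosen after the data were seen, the log2 fold changes were 0.33 for PARP10, 0.16 for PARP12, 0.15 for PARP9, 0.10 for PARP14 and 0.05 for DTX3L. PARP9 in siPRMT7 libraries then exceeded the siCtrl mean by 0.13 to 0.18, with siCtrl libraries at -0.04 to 0.04, so that its groups no longer overlapped. The same held narrowly for PARP12, with 0.0537 in the lowest siPRMT7 library and 0.0468 in the highest siCtrl library. The share of all genes without overlap was not counted in this setting, so nothing is read from either. DTX3L in siPRMT7 replicate 2 still lay at -0.12, and PARP14 there at -0.00. Without siPRMT7 replicate 2 the values were 0.35 for PARP10, 0.13 for PARP12, 0.11 for PARP9, 0.09 for PARP14 and 0.08 for DTX3L. Without siPRMT7 replicate 1 they were 0.40, 0.12 and 0.06 for PARP10, PARP12 and PARP9, and PARP14 (-0.05) and DTX3L (-0.04) turned below 0. The TPM scale and quantile normalization also put PARP14 and DTX3L below 0, at -0.01 to -0.03. The median of all genes was itself -0.035 on the TPM scale, below both genes there, and -0.006 with quantile normalization.

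Parts of the gene models overlap with genes on the opposite strand, and no source used here gives the strand setting of the counting step. Without it fragments from shared bases cannot be told apart. PARP9 and DTX3L share 217 exonic bases, which is 2.43% of PARP9 and 3.70% of DTX3L. PARP10 shares 324 of 6033 exonic bases with GRINA and 197 with SPATC1. GRINA, which encodes a membrane protein of the TMBIM family, averaged 194 FPKM in siPRMT7 and 171 FPKM in siCtrl libraries (log2 fold change 0.18, limma adjusted p = 0.288), so the abundant neighbour was higher too. Its part in the PARP10 values was not tested. PARP12 and PARP14 share 0 exonic bases with other genes.

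The genes beside the members were not called. Of 25 protein-coding genes that start within 250 kb of a member, 20 were tested, with 15 higher, 5 lower and a median log2 fold change of 0.07. Over all genes tested, 1769 of 13436 had an unadjusted p under 0.05, and the counts at that level in each list below stand beside that share. With limma 0 of the 20 passed, and 1, GRINA, had an unadjusted p under 0.05; voom and library weights also called 0. After GRINA the smallest p values belonged to SHARPIN, GPAA1 and HSPBAP1 (log2 fold changes 0.12, 0.09 and 0.12, limma adjusted p = 0.403, 0.421 and 0.428). PARP15, a further PARP gene between DTX3L and PARP14, had at most 7 fragments in any library. KPNA1, an importin on the other side of PARP9, had a log2 fold change of -0.09.

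**Figure D3:**
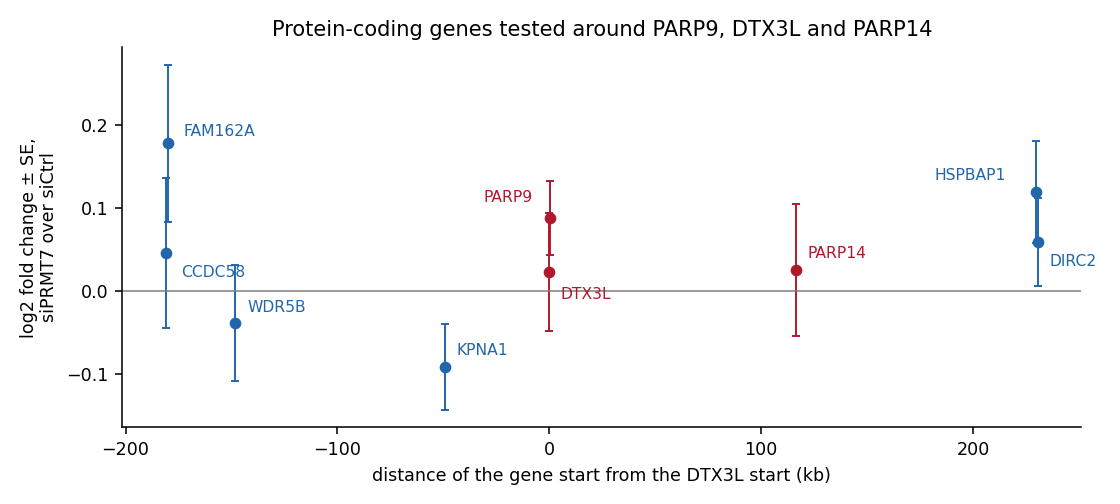
log2 fold change (siPRMT7 over siCtrl, ± SE) of the protein-coding genes tested within 250 kb of the DTX3L start, by distance of their start in kb; the described genes are red and their neighbours blue. Values run from -0.09 for KPNA1 to 0.18 for FAM162A, and the 3 described genes lie between 0.02 and 0.09.

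The rest of the PARP family held 13 genes, of which 10 passed the filter. With limma 0 were called, 4 were higher and 6 lower, the median log2 fold change was -0.03, and 2 had an unadjusted p under 0.05. Voom and library weights also called 0. TIPARP, a mono-ADP-ribosyltransferase induced by the aryl hydrocarbon receptor, had 34.1, 33.1, 32.2 and 32.5 FPKM in the siPRMT7 libraries, against 28.9, 29.6, 29.8 and 31.3 FPKM in the siCtrl libraries. PARP1, the main enzyme of DNA damage-induced ADP-ribose chains, had 26.6, 27.5, 26.5 and 27.5 FPKM in the siPRMT7 libraries, against 28.9, 28.8, 30.3 and 29.5 FPKM in the siCtrl libraries. The groups did not overlap in either gene, TIPARP being higher and PARP1 lower. Over all genes tested, 4.14% had every siPRMT7 library above every siCtrl library and 4.43% had every one below. With 10 genes in the list, nothing is read from 1 gene on either side. Neither passed over all genes (limma adjusted p = 0.232 for TIPARP and 0.270 for PARP1). ZC3HAV1, the zinc finger antiviral protein and a catalytically inactive PARP, averaged 49.5 FPKM in siPRMT7 and 46.3 FPKM in siCtrl libraries (log2 fold change 0.09, limma adjusted p = 0.392). PARP3, an enzyme of DNA break repair, averaged 13.6 FPKM in siPRMT7 and 12.6 FPKM in siCtrl libraries (log2 fold change 0.10, limma adjusted p = 0.405).

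PARP4, both tankyrases, TNKS and TNKS2, and PARP11, a mono-ADP-ribosyltransferase, were lowest in siPRMT7 replicate 2, at -0.36, -0.32, -0.33 and -0.18 log2 units from the siCtrl mean, the same library in which PARP14 (-0.17) and DTX3L (-0.16) were lowest. In the other siPRMT7 libraries they lay between -0.22 and 0.11. PARP6, PARP8 and PARP15 were below the filter, with at most 7 fragments in any library.

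**Figure D4:**
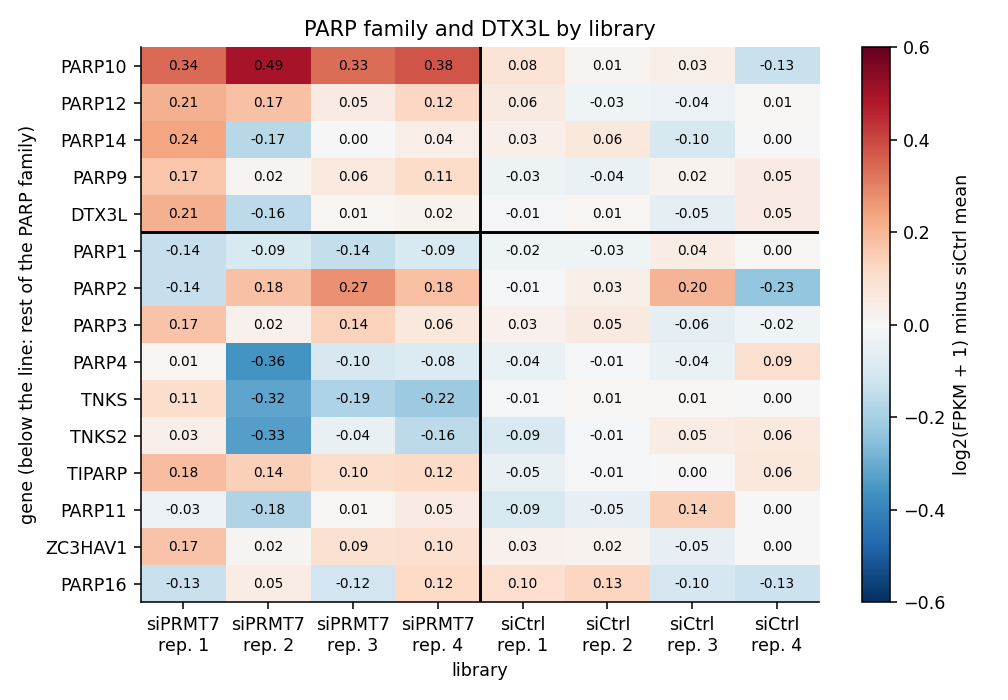
log2(FPKM + 1) minus the siCtrl mean for the 5 described genes (above the line) and the 10 other PARP genes tested, with siPRMT7 libraries left of siCtrl libraries; red is higher and blue lower. PARP10 is between 0.33 and 0.49 in every siPRMT7 library, and PARP14, DTX3L, PARP4, TNKS, TNKS2 and PARP11 are lowest in siPRMT7 replicate 2.

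Of the deltex ligases related to DTX3L, DTX2 and DTX3 were tested and 0 were called by limma, voom or library weights, with 0 at an unadjusted p under 0.05. DTX2 had a log2 fold change of 0.16 and DTX3 of 0.02 (limma adjusted p = 0.455 and 0.887), while DTX1 and DTX4 had at most 8 fragments. Of 9 genes for enzymes that remove or cleave ADP-ribose, 8 were tested, with 5 higher, 3 lower, a median of 0.02, 1 at an unadjusted p under 0.05 and 0 called by any of these 3 tests. ADPRHL2, a hydrolase that takes ADP-ribose off serine, averaged 29.8 FPKM in siPRMT7 and 26.9 FPKM in siCtrl libraries (log2 fold change 0.14, limma adjusted p = 0.341). OARD1, ENPP1 and MACROD1 followed, with log2 fold changes of 0.11, -0.11 and 0.11 (limma adjusted p = 0.467, 0.497 and 0.621). PARG, which degrades ADP-ribose chains, averaged 23.4 FPKM in siPRMT7 and 23.1 FPKM in siCtrl libraries.

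Of 13 genes that make or consume NAD+, the substrate of PARP enzymes, 8 were tested, with 6 higher, a median of 0.03, 1 at an unadjusted p under 0.05 and 0 called by limma, voom or library weights. NADK, which phosphorylates NAD+, had the smallest p (log2 fold change 0.10, limma adjusted p = 0.365), followed by NMNAT1 (0.05), NMNAT2 (-0.06) and NAMPT (0.03), each with a limma adjusted p of 0.782 to 0.792.

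Interferon signalling genes gave 10 tested of 11, with 6 higher, a median of 0.06, 5 at an unadjusted p under 0.05 and 0 called by limma or voom. IRF7, IRF1, STAT2 and IRF3, transcription factors of the pathway, had the smallest p values, with log2 fold changes of 0.28, 0.25, 0.19 and 0.15 (limma adjusted p = 0.143, 0.182, 0.225 and 0.321). IRF9, a DNA-binding factor of the pathway, averaged 2.30 FPKM in siPRMT7 and 2.31 FPKM in siCtrl libraries.

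Among interferon-induced genes the members took very different places. Another 42 genes of the interferon response had a median log2 fold change of 0.21, 39 of them above 0. With limma 1 was called, and 33 had an unadjusted p under 0.05. For 29 every siPRMT7 library was above every siCtrl library, against 4.14% of all genes tested. The gene called was RSAD2, the antiviral enzyme viperin (log2 fold change 0.54, limma adjusted p = 0.0125), and that call was lost in 7 of 17 alternatives, among them leaving out any 1 siCtrl library or siPRMT7 replicate 3 (adjusted p up to 0.142 over the alternatives). TRIM22, OASL and TRIM21 had the next smallest p values (log2 fold changes 0.40, 0.35 and 0.31, limma adjusted p = 0.0735, 0.101 and 0.101). Larger log2 fold changes than that of PARP10 were found in 6 of the 42, than that of PARP12 in 30 and than that of PARP9 in 35. For PARP14 it was 38 and for DTX3L 39 of 42. That list was drawn up with earlier results of these libraries known, so its direction and its counts are no independent evidence.

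**Figure D5:**
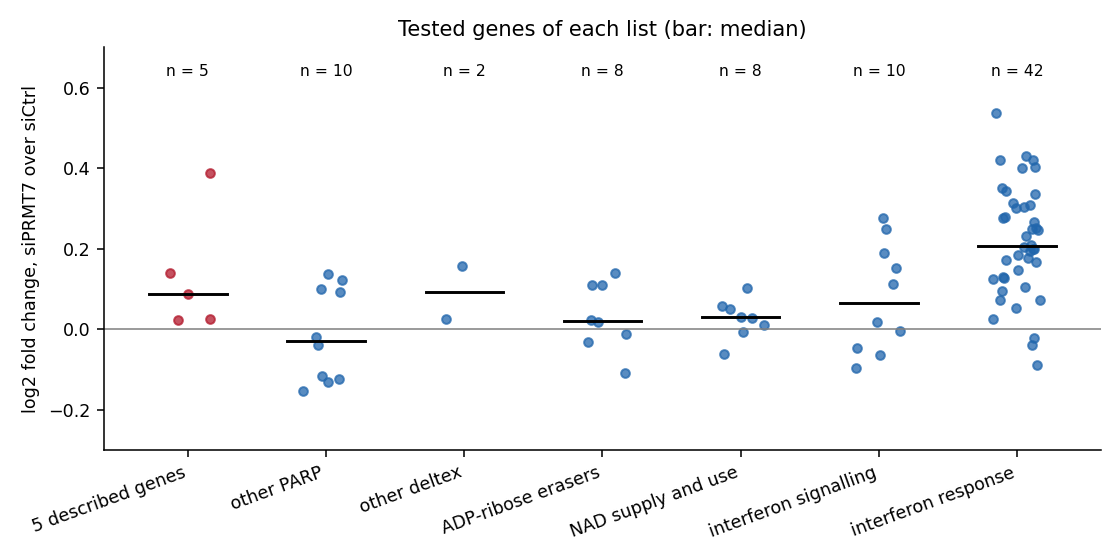
log2 fold change (siPRMT7 over siCtrl) of every tested gene in each list, with the median as a bar and the number of genes above. The 5 described genes (red) run from 0.02 to 0.39, and the interferon response list has a median of 0.21.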

How the data were processed

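Poly(A) RNA of 8 PC3 libraries was sequenced. The authors deposited FPKM values per gene. Trimming, alignment and counting tools in the submitters' processing notes are cutadapt (2.5), HISAT2 (version 2.1.0) and featureCounts (version 1.6.3), beside a mouse build that the human identifiers contradict. The start, end and strand of all 58735 genes match GENCODE release 29 on GRCh38.

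FPKM times gene length was a whole multiple of 1 step per library for 100% of values above 0 (tolerance 0.01 fragments), so fragments were rebuilt. The 13436 genes reaching 1 FPKM in 4 or more libraries were tested on log2(FPKM + 1) by limma (version 3.58.1, R version 4.3.3). The test allowed a trend of variance on level and was two-sided, Benjamini-Hochberg adjusted over all genes, threshold 0.05. It was checked on simulated data with a fixed spread and no trend on length or GC content. These libraries do have such trends, so the check does not show how the test performs on them. PRMT7 had an exact permutation test. The members and lists were chosen with earlier results of these data known. The 4 tested genes with the smallest p were named per list, with the nearest genes by profile distance. IRF9, KPNA1, PARG, PARP4, PARP11, TNKS and TNKS2 were added after their values were seen. Alternatives were other pseudocounts, filters, scalings and spread models, a replicate block, voom on fragments and leaving out each library. Counting errors cover counting only. Promoter sequences are from RefSeq.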

Additional observations from a re-analysis of the deposited data

Results flagged for a closer look

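In the group of siCtrl libraries DTX2, a deltex ligase, had 4.91 FPKM in replicate 4, far from the other siCtrl libraries: the gap to the nearest took 0.874 of the group's range, above Dixon's limit for 4 values. ENPP1, listed with the enzymes that remove or cleave ADP-ribose, had 2.87 FPKM in siCtrl replicate 3, below the others, with a gap of 0.888 of the range. Chance gives such a gap in about 1 of 20 groups, and the number of groups looked at is not given here. DTX2 and ENPP1 were not the only listed genes with such a gap. IFITM2 had 169 FPKM in siPRMT7 replicate 2, with 142 to 146 FPKM in the other siPRMT7 libraries. ADPRH had 3.99 FPKM in siCtrl replicate 3, with 3.36 to 3.47 FPKM in the other siCtrl libraries. None of the 5 described genes had such a gap in either group.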

How the results depend on the processing

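Over 17 alternatives the log2 fold changes of PARP9, PARP10 and PARP12 ran from 0.05 to 0.15, 0.33 to 0.42 and 0.10 to 0.17, while PARP14 (-0.05 to 0.10) was below 0 in 4 and DTX3L (-0.04 to 0.08) in 3, and the median of the 5 ran from 0.05 to 0.15; the other filters and the replicate block cannot move a fold change here and add nothing to these ranges. Of all genes 2 were called higher as reported, 1 with a pseudocount of 0.1, with FPKM of at least 5 or with quantile normalization, 46 with library weights, 12 with voom, 0 with the replicate block, 7 with trends on GC content and length removed, and 0 to 4 on leaving out 1 library. Genes called lower were 0 as reported, 2 with no filter, 12 with library weights, 1 with voom and 0 to 1 on leaving out 1 library. Of the interferon response genes 1 was called as reported, 2 on the TPM scale, 0 with quantile normalization, 13 with library weights, 4 with voom, 0 with the replicate block, 5 with the trends removed and 0 to 2 on leaving out 1 library, and library weights called 1 interferon signalling gene. The other lists had 0 called under all 17. PRMT7 had a log2 fold change of -0.14 on the TPM scale (exact permutation p = 0.0286), and -0.13 to -0.07 on leaving out 1 library. The cause of these shifts was not tested. The median log2 fold change of all genes was -0.04 on the TPM scale and -0.00 as reported. Whether replicate numbers pair the libraries was not settled. Same-numbered deviations correlated at -0.0314 to 0.0613 and differently numbered ones at -0.122 to 0.131. Such low values cannot show that libraries were not prepared in pairs. The values of PRMT7 rest on 612 to 788 fragments a library.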
